A study of Mus musculus with 6 samples.

Results

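White adipose tissue takes up fatty acids in steps, and 10 genes of these steps were followed in inguinal white adipose tissue (iWAT) of thyroid hormone receptor alpha (THRA) mutant and wild-type (Wt) mice. The genes were chosen by symbol, as Lpl, Gpihbp1, Angptl4, Vldlr, Cd36, Slc27a1, Slc27a4, Fabp4, Fabp5 and Acsl1, and each of the 10 was found once among the 55573 genes listed. The study asked how reduced SUMO attachment to THRA affects fat stores. RNA-seq was performed on total RNA of the inguinal fat, a subcutaneous depot, with 1 library per mouse.

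The mutant group was 3 male mice homozygous for the THRA K283Q/K288R knock-in, a global mutation that is carried by every cell type of the tissue and not by adipocytes alone. The Wt group was 3 male mice without the mutation. Mice of both groups were C57BL/6NTac, 3 months old, on regular chow and without treatment. The mutation changes residues of the protein, and the level of the Thra transcript therefore does not check the genotype. Thra values were 147, 128 and 117 in Wt mice 1, 2 and 3, against 170, 140 and 137 in mutant mice 1, 2 and 3.

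Fat in the blood travels mainly as triglyceride in lipoproteins. Lipoprotein lipase, which adipocytes secrete, is carried to the capillary wall by GPIHBP1 and there releases fatty acids from the triglyceride, while ANGPTL4 inactivates the enzyme. The fatty acids enter the adipocyte with the help of CD36 and of fatty acid transport proteins, are bound in the cytosol by fatty acid binding proteins, and are joined to coenzyme A by acyl-CoA synthetases before they are stored.

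Values are normalized CPM, that is, reads per gene scaled by the authors to the size of the library and by a further factor for each mouse. The 6 libraries held 19607423 to 24228381 reads on genes. Each of the 10 genes had at least 664 reads in every mouse, and the 3 reads taken as the detection limit correspond to a value of 0.126 to 0.157, for counting error only. Genotypes were compared with limma on log2(value + 0.5), a scale on which differences of low genes are understated, with Benjamini-Hochberg adjustment over the 16868 genes tested and a false discovery rate (FDR) of 0.05. Each mouse is a separate animal, values per mouse are given in the order of mice 1, 2 and 3, and a log2 difference is mutant minus Wt throughout.

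None of the 10 genes passed this test, against 8.11% of all genes tested (1368 genes). At an unadjusted p under 0.05 there were 2, Angptl4 and Slc27a1, against 4075 of the 16868 genes. The edgeR quasi-likelihood test on the reads also called 0 of the 10, against 6.92% of all genes. The DESeq2 Wald test called the pair of Angptl4 and Slc27a1 as lower in mutant mice (adjusted p = 0.0285 and 0.00645), a call it made for 4.64% of all genes. The values of the 3 mutant and the 3 Wt mice did not overlap for 2 of the 10 genes, again Angptl4 and Slc27a1, and among all genes tested this held for 30.6%. In both the mutant mice were the lower, which held for 15.7% of all genes. The median log2 difference of the 10 genes was -0.11, and that of all genes tested was -0.05.

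**Figure D1:**
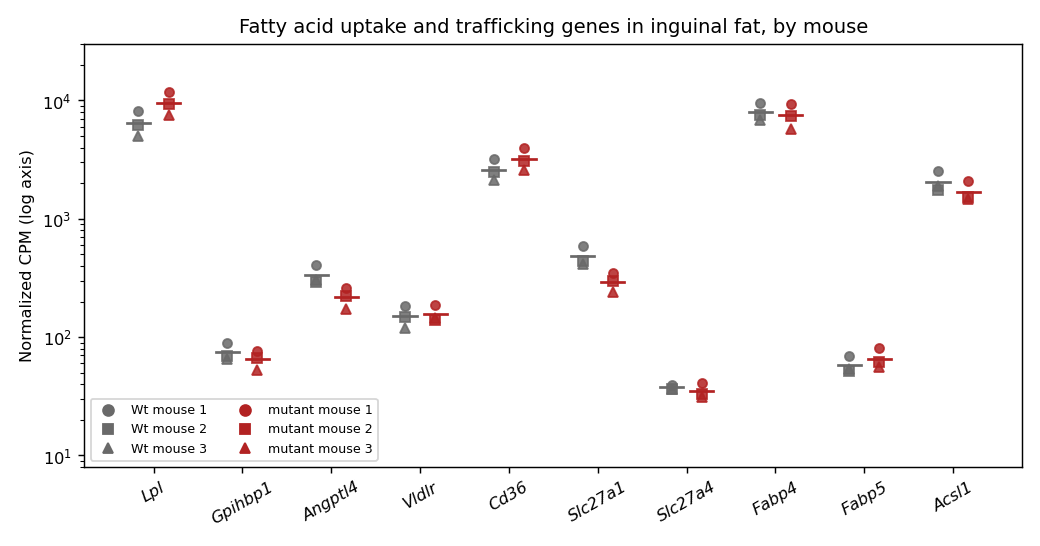
Normalized CPM (log axis) of each of the 10 genes in each mouse; grey points are Wt and red points mutant mice, the symbol gives the mouse number and the bar is the mean of 3 mice. The genotypes are separated for Angptl4 and Slc27a1, and mouse 1 (circle) is the highest mouse of its genotype for every gene.

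The first group is the lipoprotein lipase system. Lpl, the lipase itself, was at 8158, 6234 and 5050 in Wt mice 1, 2 and 3, against 11844, 9261 and 7573 in mutant mice 1, 2 and 3. Mutant mouse 1 was the highest of the 6 and Wt mouse 3 the lowest, and the genotypes overlapped, since mutant mouse 3 lay below Wt mouse 1. The means were 6481 ± 1569 (SD, n = 3) in Wt and 9559 ± 2151 (SD, n = 3) in mutant mice, a log2 difference of 0.56 (SE 0.41, 95% confidence interval -0.42 to 1.55) with an adjusted p of 0.428 in limma. The spread between mice of 1 genotype was as large as this difference, the highest mouse being 1.62 times the lowest in Wt and 1.56 times in mutant mice.

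Angptl4, the inhibitor of the lipase, was at 410, 292 and 303 in the 3 Wt animals, against 261, 222 and 174 in the 3 mutants. All 3 mutant mice lay below all 3 Wt mice. The means were 335 ± 65.0 and 219 ± 43.5 (SD, n = 3 each), so that the mutant mean was 0.654 times the Wt mean, and the log2 difference was -0.61 (SE 0.19, interval -1.08 to -0.15; limma adjusted p = 0.115).

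The mutant mean thus lay above the Wt mean for the lipase and below it for the inhibitor. The ratio of Lpl to Angptl4, in which the scaling of each library cancels, was 19.9, 21.4 and 16.7 in the 3 Wt animals, against 45.4, 41.8 and 43.5 in the 3 mutants. The lowest mutant mouse, with 41.8, thus lay above the highest Wt mouse, with 21.4. The ratio was chosen after the values were seen and is given as a description.

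Gpihbp1, the capillary anchor of the lipase, is made by endothelial cells. It was at 90.03, 69.3 and 66.0 in the 3 Wt animals, against 76.5, 67.2 and 53.0 in the 3 mutants, with overlap and a log2 difference of -0.20 (SE 0.17, interval -0.62 to 0.22). The endothelial markers Pecam1, Cdh5, Tie1 and Emcn summed to 594 to 656 in Wt and 566 to 661 in mutant mice, also with overlap. Of these, Emcn was at 21.5 to 25.4 in Wt and 29.5 to 35.7 in mutant mice (limma adjusted p = 0.0625), while Pecam1, Cdh5 and Tie1 overlapped. The ratio of Lpl to Gpihbp1 was 76.6 to 90.6 in Wt and 138 to 155 in mutant mice. Vldlr, a receptor that binds triglyceride-rich lipoproteins beside the lipase, was at 182, 148 and 120 in the 3 Wt animals, against 186, 138 and 144 in the 3 mutants. The mice of both genotypes were interleaved for Vldlr, and the log2 difference of 0.07 had a sign that changed with the mice and correction used.

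The second group is the transporters of the cell membrane. Cd36, the scavenger receptor that serves long-chain fatty acid uptake in fat, was at 3201, 2503 and 2112 in the 3 Wt animals, against 3928, 3082 and 2562 in the 3 mutants. The genotypes overlapped, and the difference of 0.29 on the log2 scale (SE 0.27, interval -0.37 to 0.95; limma adjusted p = 0.534) was within the spread between mice. Slc27a1, which encodes the transport protein FATP1, was at 590, 439 and 415 in the 3 Wt animals, against 350, 296 and 239 in the 3 mutants. The highest mutant mouse lay below the lowest Wt mouse.

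The Slc27a1 means were 481 ± 94.8 in Wt and 295 ± 55.4 in mutant mice (SD, n = 3 each), the mutant mean being 0.613 times the Wt mean. The log2 difference of -0.70 (SE 0.19, interval -1.17 to -0.24) was the farthest from 0 of the 10 genes and had a limma adjusted p of 0.0816. Slc27a4, which encodes the related protein FATP4, was at 39.6, 36.5 and 36.8 in the 3 Wt animals, against 41.1, 33.2 and 31.1 in the 3 mutants, with a log2 difference of -0.11 (SE 0.12, interval -0.39 to 0.18). The ratio of Slc27a1 to Slc27a4 was therefore lower in every mutant mouse (8.51, 8.93 and 7.70) than in any Wt mouse (11.3 to 14.9). Of Cd36 to Slc27a1 the ratio was 5.43, 5.70 and 5.09 in Wt and 11.2, 10.4 and 10.7 in mutant mice. Both ratios are descriptions chosen after the values were seen.

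Start sites from RefSeq (GRCm38.p6) were at hand for 5 of the 10 genes, with 9 windows of 250 bases before a start. The window of Cd36 and 2 of the 3 windows of Slc27a1 are shown because the log2 differences of these transporters had opposite signs. Neither gene passed limma, and the genotypes overlapped for Cd36. The Cd36 start, at 17835896, lies inside the gene as annotated (17781690 to 17888801, minus strand). No window was at hand for the outer end of Cd36. The other Slc27a1 window, which overlaps exons of the gene by 102 bases, is not shown. Searched on both strands were the nuclear receptor site AGGTCA, its direct repeats DR1 and DR4 with a spacer of 1 or 4 bases of any kind, the E-box CACGTG and the D-box TTATGTAA. A match of DR1 or DR4 therefore holds AGGTCA. Capitals mark a match as it reads on the strand of the gene, and the sequences end with the base before the start.
Cd36, chr5:17835897-17836146, minus strand: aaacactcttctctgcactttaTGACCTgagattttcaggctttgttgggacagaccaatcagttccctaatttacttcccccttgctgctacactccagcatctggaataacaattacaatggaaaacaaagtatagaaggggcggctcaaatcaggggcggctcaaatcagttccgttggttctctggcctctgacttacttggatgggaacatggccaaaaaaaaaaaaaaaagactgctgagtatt
Slc27a1, first start, chr8:71568621-71568870, plus strand: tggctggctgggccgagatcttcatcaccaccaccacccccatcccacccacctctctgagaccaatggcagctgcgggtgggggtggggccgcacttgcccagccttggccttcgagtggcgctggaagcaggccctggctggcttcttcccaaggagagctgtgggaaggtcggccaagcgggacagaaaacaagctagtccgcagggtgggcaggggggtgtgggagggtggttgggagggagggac
Slc27a1, most downstream start, chr8:71570344-71570593, plus strand: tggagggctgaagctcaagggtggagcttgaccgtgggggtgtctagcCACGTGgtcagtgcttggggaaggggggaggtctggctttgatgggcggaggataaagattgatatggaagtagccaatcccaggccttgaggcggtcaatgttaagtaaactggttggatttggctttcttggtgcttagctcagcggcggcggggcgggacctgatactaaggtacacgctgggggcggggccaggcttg

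The Cd36 window held 1 AGGTCA site, read as TGACCT, that begins at position -228 from the start. The most downstream Slc27a1 window held 1 E-box, at position -202. The 7 other windows, of Slc27a1, Slc27a4, Vldlr and Acsl1, held none of these letters. Of the 32851 windows of all genes, 14.0% held AGGTCA, 6.02% the E-box, 0.819% the D-box, 0.0335% DR1 and 0.0152% DR4. A match describes these bases and was not linked to the expression of either gene.

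The third group is the cytosolic carriers. Fabp4, the main fatty acid binding protein of adipocytes, was at 9575, 7560 and 6777 in the 3 Wt animals, against 9361, 7365 and 5789 in the 3 mutants. The mice of both genotypes were interleaved, and the means of 7971 ± 1444 and 7505 ± 1790 (SD, n = 3 each) differed by far less than the spread between mice. The 95% interval of the log2 difference was nonetheless wide, from -1.05 to 0.85 around -0.10. Fabp5, a second carrier present in adipocytes and macrophages, was at 68.9, 51.4 and 54.3 in the 3 Wt animals, against 80.2, 61.3 and 55.6 in the 3 mutants, with overlap and a log2 difference of 0.17 (SE 0.17). The macrophage markers Adgre1, Cd68, Csf1r and Mrc1 summed to 525 to 594 in Wt and 489 to 604 in mutant mice. Within this sum Cd68 was at 49.5 to 68.5 in Wt and 36.5 to 45.7 in mutant mice. Mrc1 went the other way, at 197 to 218 in Wt and 219 to 285 in mutant mice. Adgre1 and Csf1r overlapped, and none of these markers passed limma.

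Acsl1, the main long-chain acyl-CoA synthetase of fat, was at 2544, 1759 and 1888 in the 3 Wt animals, against 2090, 1517 and 1467 in the 3 mutants. Mutant mouse 1 lay above Wt mice 2 and 3, and the log2 difference of -0.29 (SE 0.24, interval -0.86 to 0.28) was within the spread. Acsl1 shares 1039 exonic bases with Gm45244 on the other strand, a gene with a mean value of 0.352 against 1877 for Acsl1.

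**Figure D2:**
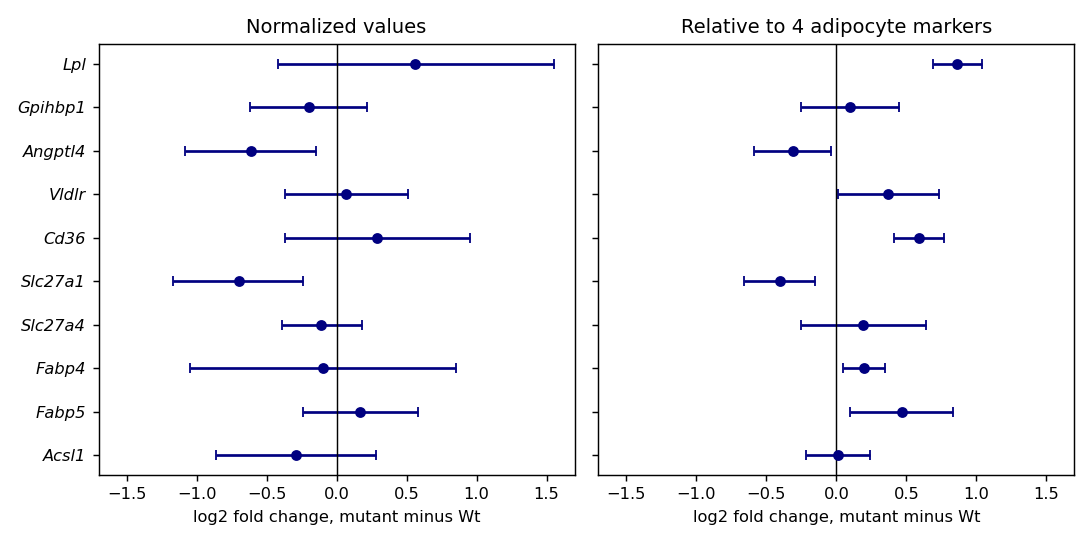
Log2 difference of each gene, mutant minus Wt, with its 95% confidence interval from limma (3 mice per genotype), for the normalized values on the left and for the values relative to the mean of 4 adipocyte markers on the right. On the left only the intervals of Angptl4 and Slc27a1 leave out 0, and on the right those of Lpl and Cd36 lie farthest above it.

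The order of the 10 genes was compared on a scale per length, as normalized CPM per kilobase of the principal transcript, averaged over the 6 mice. Fabp4 stood first with 8636, followed by Lpl with 1949, Cd36 with 853 and Acsl1 with 482. Slc27a1 came next with 139, then Gpihbp1 with 85.2, Angptl4 with 83.7, Fabp5 with 62.7, Vldlr with 19.2 and Slc27a4 with 8.97. Every gene lay above the next in the order in all 6 mice, except Gpihbp1, which lay above Angptl4 in 3 of 6, and Angptl4, which lay above Fabp5 in 4 of 6. Of the neighbours, Cd36 and Acsl1, Slc27a1 and Gpihbp1, Gpihbp1 and Angptl4, and Angptl4 and Fabp5 had ranges over the mice that overlapped.

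The 10 genes shared their highest mouse within each genotype. Mouse 1 was the highest Wt mouse and the highest mutant mouse for all 10 of them, whereas among all genes tested mouse 1 was the highest in both genotypes for 29.7%. The mice with equal numbers are different animals. Mouse 1 was also the highest for the adipocyte markers, as Adipoq, Plin1, Cidec and Pnpla2 summed to 8839, 6530 and 6157 in Wt mice 1, 2 and 3, against 7261, 5661 and 4702 in mutant mice 1, 2 and 3. In a bulk tissue, fewer adipocytes and less RNA per adipocyte cannot be told apart.

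The B cell markers Cd79a and Ms4a1 had the reverse order, with sums of 125, 248 and 255 in the 3 Wt animals, against 0.734, 158 and 247 in the 3 mutants, so that mouse 1 was the lowest of each genotype and mutant mouse 1 was near 0. With the B cell markers as a covariate in limma, chosen after the data were seen, 2 of the 10 genes passed, Angptl4 (log2 difference -0.78, adjusted p = 0.0268) and Slc27a1 (-0.86, adjusted p = 0.0197), both lower in mutant mice, against 3.25% of all genes. The covariate, a mean log2 value, was -0.23 in mutant mouse 1 and 5.97 to 6.98 in the other mice, so it rests largely on 1 library. With mutant mouse 1 left out and no covariate, the log2 differences were -0.75 and -0.84, and neither gene passed limma (adjusted p = 0.0758 and 0.0569).

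The marker sums of skeletal muscle and mesothelium were higher, and that of brown fat was lower, in every mutant than in any Wt mouse. Acta1, Ckm, Myh1 and Myh2 of skeletal muscle, a tissue that also expresses Lpl, Cd36 and Slc27a1, summed to 3741 to 7689 in Wt and 8265 to 12237 in mutant mice without overlap, and of these Myh1 was at 31.1 to 279 in Wt and 1986 to 2405 in mutant mice, while Acta1 and Ckm overlapped. Fabp3, the fatty acid binding protein of muscle, was at 4.73 to 15.9 in Wt and 9.33 to 11.9 in mutant mice. The mesothelial markers Upk3b, Msln, Wt1 and Lrrn4 summed to 1.99 to 4.42 in Wt and 25.6 to 54.8 in mutant mice. Ucp1 and Cidea, markers of brown fat, summed to 35.3 to 61.6 in Wt and 20.1 to 34.9 in mutant mice. Of these, Ucp1 was at 7.39 to 15.5 in Wt and 3.23 to 3.51 in mutant mice, while Cidea overlapped. The epithelial markers Epcam, Krt8, Krt18 and Krt14 summed to 54.0 in Wt mouse 1 and 2.81 to 6.78 in the other 5 mice. The part of these markers in the values of the 10 genes was not tested.

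**Figure D3:**
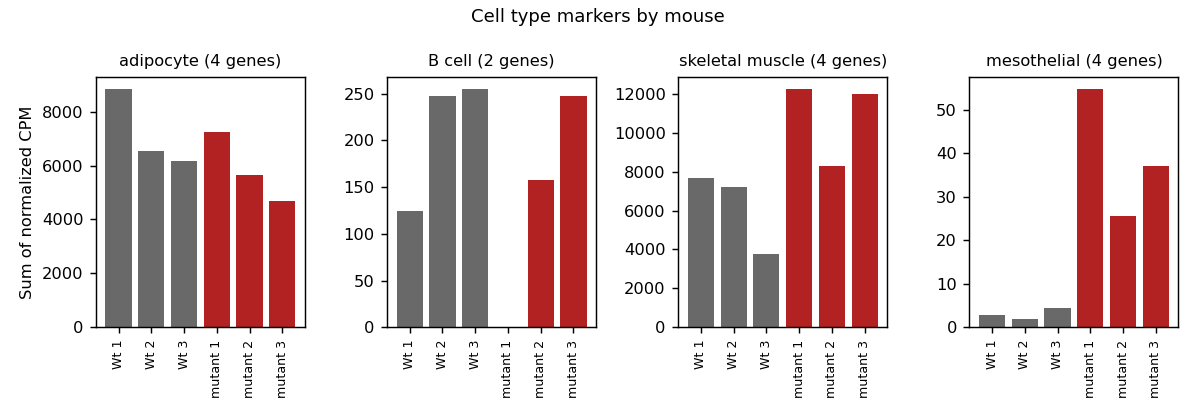
Sum of the normalized CPM of marker genes of adipocytes, B cells, skeletal muscle and mesothelium in each mouse (grey, Wt; red, mutant; linear axes from 0, different in each panel). Adipocyte markers are highest and B cell markers lowest in mouse 1 of each genotype. The sums of the muscle and of the mesothelial markers are higher in all 3 mutant than in all 3 Wt mice. Taken alone, Acta1 and Ckm of the muscle markers overlap between the genotypes.

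Since the 10 genes and the adipocyte markers shared their highest mouse, each value was also expressed relative to the mean log2 value of Adipoq, Plin1, Cidec and Pnpla2 in the same mouse, a scale that was chosen after the data were seen. This scale raises the median log2 difference of all genes to 0.25. On it Lpl was at 1.89, 1.95 and 1.72 in the 3 Wt animals, against 2.73, 2.72 and 2.70 in the 3 mutants, all log2 units relative to the markers. The range between mice was 0.22 in Wt and 0.02 in mutant mice. The log2 difference of Lpl was 0.86 (SE 0.07, interval 0.69 to 1.04; limma adjusted p = 0.00219), or 0.61 above the median of all genes.

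Cd36 on this scale was at 0.54, 0.63 and 0.46 in Wt and at 1.14, 1.13 and 1.14 in mutant mice, with a log2 difference of 0.59 (SE 0.08, interval 0.41 to 0.77; limma adjusted p = 0.00673), or 0.34 above the median. Lpl and Cd36 were the 2 of the 10 genes that passed, both higher in mutant mice, against 6.06% of all genes. Angptl4 (log2 difference -0.31, adjusted p = 0.187) and Slc27a1 (-0.40, adjusted p = 0.0789) remained lower in all 3 mutant than in all 3 Wt mice. Without overlap, 5 of the 10 genes were higher in mutant mice, namely Lpl, Vldlr, Cd36, Fabp4 and Fabp5, against 28.4% of all genes, and 2 were lower, against 1.01%. Both shares belong to this scale, which raises the differences of all genes. On the normalized values the same 2 genes were lower without overlap, against 15.7% of all genes. Relative to the median of all genes the differences of Vldlr, Fabp4 and Fabp5 were 0.12, -0.05 and 0.22, and those of Angptl4 and Slc27a1 were -0.56 and -0.65.

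Adipoq, Plin1, Cidec and Pnpla2 themselves did not keep a fixed ratio between the genotypes. Adipoq was at 1557 to 2219 in Wt and 1332 to 2141 in mutant mice, and Pnpla2 at 1752 to 2453 in Wt and 1172 to 1745 in mutant mice. With Adipoq alone as the reference, Lpl was 3.24 to 3.94 times Adipoq in Wt and 5.53 to 5.72 times in mutant mice (log2 difference 0.65, SE 0.09, limma adjusted p = 0.0111), and Lpl was the single gene of the 10 to pass, as higher, against 2.60% of all genes. Cd36 was then 1.36 to 1.58 times Adipoq in Wt and 1.83 to 1.92 times in mutant mice (adjusted p = 0.111). Slc27a1 was 0.266 to 0.278 times Adipoq in Wt and 0.163 to 0.183 times in mutant mice (adjusted p = 0.0516). Angptl4 was 0.185 to 0.195 times Adipoq in Wt and 0.122 to 0.137 times in mutant mice (adjusted p = 0.109). Fabp5 was 0.0310 to 0.0349 times Adipoq in Wt and 0.0375 to 0.0417 times in mutant mice (adjusted p = 0.848), and Acsl1 1.11 to 1.21 times in Wt and 0.937 to 1.10 times in mutant mice (adjusted p = 0.651), both without overlap. The mice of both genotypes overlapped for Fabp4, Gpihbp1, Vldlr and Slc27a4. For Lpl, Cd36, Fabp5, Slc27a1 and Angptl4 the genotypes were thus separated under both references. The share of all genes without overlap relative to Adipoq was not computed, so the separation on that scale is a description only. Lpl passed under both references and Cd36 under the mean of the markers.

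**Figure D4:**
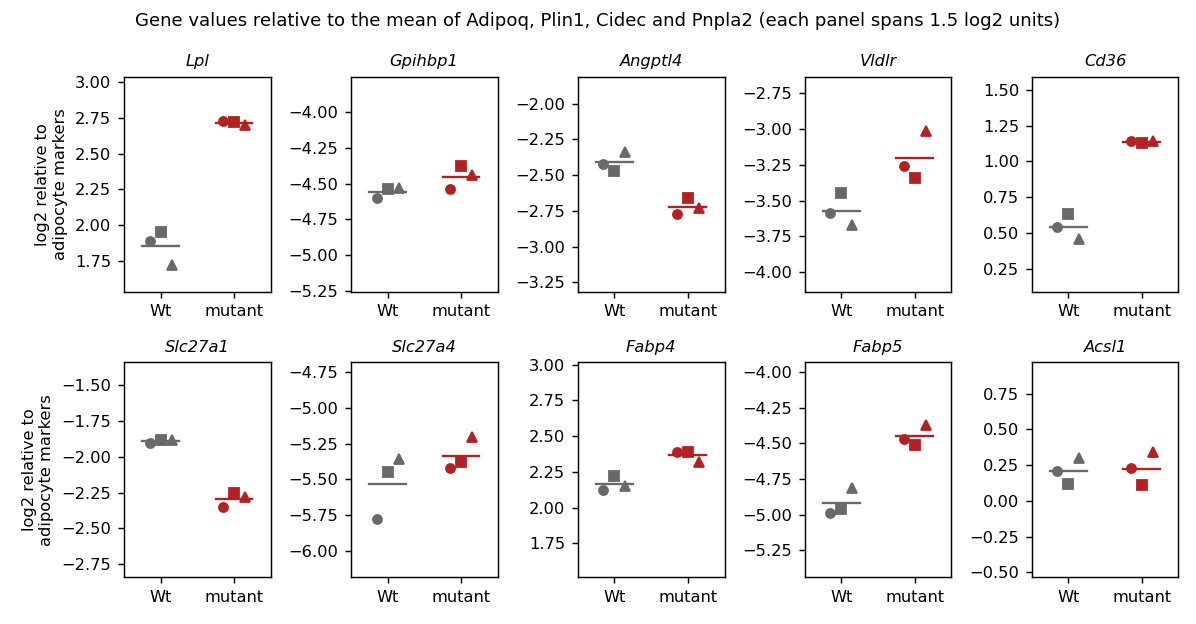
Log2 value of each gene relative to the mean log2 value of Adipoq, Plin1, Cidec and Pnpla2 in the same mouse (grey, Wt; red, mutant; symbols give the mouse number as circle 1, square 2 and triangle 3; bars are means of 3 mice; each panel spans the same height). Lpl and Cd36 are higher and Angptl4 and Slc27a1 lower in all 3 mutant mice, while Gpihbp1, Slc27a4 and Acsl1 overlap.

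A further 41 genes of the same steps were read from the same limma fit on the normalized values. Of these, 29 were tested and 1 passed, Angptl8, higher in mutant mice, against 5.50% of all genes that passed as higher and 2.61% as lower. The median log2 difference of those tested was -0.07. The other 12, among them Apoc2 and Fabp2 with no reads in any mouse, were too low to be tested.

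Among the 7 lipoprotein lipase partners tested, Angptl8, a regulator of the lipase that is made in fat after feeding, rose in mutant mice. Its values were 4.73, 3.40 and 3.66 in the 3 Wt animals, against 12.5, 8.30 and 7.25 in the 3 mutants, without overlap. The log2 difference was 1.13 (SE 0.23, interval 0.57 to 1.68) with a limma adjusted p of 0.0353. Leaving out 1 mouse at a time, it passed only without mutant mouse 1 (adjusted p = 0.0449), and without the others the adjusted p was 0.0508 to 0.133. Angptl8 lies on the other strand within Dock6 (mean value 65.3 against 6.64) and shares no exonic bases with it. Reads of unspliced Dock6 RNA cannot be told apart from those of Angptl8 unless strand was used in counting. Sort1, Sel1l and Pcsk6, proteins of secretion and processing, were the most abundant other partners and had log2 differences of 0.12, 0.08 and 0.01.

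Of the 3 lipoprotein receptors, Lrp1, a large endocytic receptor, Scarb1, the receptor for high-density lipoprotein, and Lsr, none passed limma, the edgeR quasi-likelihood test or the DESeq2 Wald test, and 0 had an unadjusted p under 0.05 in limma. Their log2 differences were -0.24, -0.25 and -0.03.

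None of the 7 other transporters, 2 other binding proteins, 5 other synthetases and 5 regulators tested passed this limma fit. The quasi-likelihood test of edgeR and the Wald test of DESeq2 on the reads called none of them either. Calls of Cav1, Dbi and regulators under other settings are given with the alternatives below. Of all 29 related genes tested, 5 had an unadjusted p under 0.05 in limma, against 4075 of the 16868 genes. Beside Angptl8 these were the lipoprotein lipase partner Lmf1 (log2 difference -0.31), the synthetase Acsl6 (0.64) and the regulators Ppara (-0.51) and Ppard (-0.25). Lmf1, Acsl6, Ppara and Ppard are named here after their values were seen. Cav1 and Cavin1, which form the caveolae in which CD36 sits, had log2 differences of 0.34 and -0.18, and Cavin2 of -0.07. Dbi, the acyl-CoA binding protein, was at 881 ± 171 in Wt and 1036 ± 237 in mutant mice (SD, n = 3 each). Pparg, the nuclear receptor that drives many genes of fatty acid uptake in fat, was at 214 ± 43.0 and 235 ± 51.6, a log2 difference of 0.13 (SE 0.20). Its partner Rxra and the adipocyte factor Cebpa had log2 differences of -0.20 and -0.32.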

How the data were processed

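RNA-seq libraries of inguinal fat from 3 mutant and 3 Wt mice were grouped by their labels. Per the submitters' processing notes, Bowtie2 2.1.0, RSEM 1.2.15 and edgeR were used with build mm10; the use of strand is not given in the sources used here. The deposited values are a normalized signal, CPM scaled by the authors with a further factor for each mouse. Relative to each other the factors lay within 2.17% of TMM factors of these 6 libraries. All values above 0 (100.0%, tolerance 0.01 reads) were whole multiples of 1 read, so the reads were recovered. Libraries of 1 genotype differed beyond sampling noise (chi-square of 19.3 to 64.9 per degree of freedom), and none was taken for a repeat of another.

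The test was limma-trend (limma 3.58.1, R 4.3.3) on log2(value + 0.5), as planned for normalized values, over the 16868 genes kept by filterByExpr of edgeR 4.0.16. The smallest p of an exact permutation test (two-sided) of 3 against 3 mice is 0.1. Alternatives were edgeR's quasi-likelihood test, DESeq2 1.42.0, limma-voom, other size factors, filters and pseudocounts, an FDR of 0.1, a replicate block, centring by GC content and leaving out each mouse. TMM factors of these libraries, both adipocyte references and the B cell covariate were added after the data were seen. The script was tested on simulated data. GENCODE M21 (GRCm38) held 55480 of the identifiers and gave transcript lengths, GC content and overlaps.

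The 10 genes, the 41 related genes and the markers were chosen with earlier results of these data known. Named were the 10 genes, the related gene that passed, up to 3 others per list by mean value, and the markers. The ratios between genes, and Dock6 and Gm45244, were named after their values were seen. The genes most like each of the 10 that passed were also to be named, and none passed. Some genes of the planned lists are not reported here and were left out of the lists' counts and sums.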

Additional observations from a re-analysis of the deposited data

How the results depend on the processing

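Under all 10 other tests, scaling factors, filters and pseudocounts, the 10 genes kept the sign of their log2 difference. Of the 10 genes, DESeq2 called 2, library size alone 1 (Slc27a1), an FDR of 0.1 called 1, the adipocyte markers as reference 2, Adipoq as reference 1 and the B cell covariate 2; leaving out each mouse in turn called 0. Among the 16868 genes tested the counts were 2118 with DESeq2, 1284 by library size alone, 2263 at an FDR of 0.1 and 554 to 1005 without 1 mouse. They were 1041 relative to the adipocyte markers, 462 relative to Adipoq and 1428 with the B cell covariate. Without a filter, 1296 of 31321 genes passed. Of the related genes, 2 passed at an FDR of 0.1, 2 without a filter and 0 to 1 without 1 mouse. Relative to the adipocyte markers 3 passed, Angptl8, Cav1 and Dbi, all higher. The deviations of same-numbered mice correlated at 0.69, 0.06 and 0.56. Those of Wt mouse 3 and mutant mouse 2 correlated at 0.54, and those of Wt mouse 2 and mutant mouse 3 at 0.33. The remaining combinations lay from -0.67 to -0.25. Equal numbers were therefore not taken as pairs. With the replicate block in limma 4063 genes, 3 of the 10 and 6 related genes passed. The 3 were Lpl, higher (adjusted p = 0.042), and Angptl4 and Slc27a1, lower (0.0138 and 0.00656). The 6 were Angptl8 and Cav1, higher, and Cebpa, Ppara, Ppard and Rxra, lower. With GC centring and the block 3248 genes, 3 of the 10 (Angptl4, Slc27a1 and Acsl1, lower) and 4 related genes passed. The sign turned for Vldlr and Slc27a4 with GC centring (0.00 and 0.05) and with GC centring and the block (0.00 and 0.05), for Vldlr without Wt mouse 3 (-0.08) or mutant mouse 1 (-0.07; range without 1 mouse -0.08 to 0.22), for Fabp4 without Wt mouse 1 (0.04) or mutant mouse 3 (0.07; range -0.27 to 0.07), and for Vldlr (-0.08) and Fabp5 (0.00) with the B cell covariate. None of these values passed, and the cause was not tested. Relative to the adipocyte markers Gpihbp1 (0.10), Slc27a4 (0.19), Fabp4 (0.20) and Acsl1 (0.01) lay above 0, as this scale moves the median of all genes from -0.05 to 0.25, and all 4 kept their sign relative to that median (-0.15, -0.06, -0.05 and -0.24). Without 1 mouse the adjusted p was 0.0758 to 0.247 for Angptl4 and 0.0569 to 0.202 for Slc27a1, and over all alternatives 0.0138 to 0.247 and 0.00645 to 0.202, with 0.00219 to 0.735 for Lpl and 0.00673 to 0.874 for Cd36. The share of called genes that were higher, 67.8%, became 42.7% with the block, 86.4% with GC centring, 98.3% relative to the adipocyte markers and 95% relative to Adipoq, and 79.4% by library size alone. Counting error at this depth is small beside the spread between mice, and 3 mice per genotype set the width of the intervals.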
